A study of Rattus norvegicus with 9 samples.

Results

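Macrophages of the rat tongue were followed here through 10 marker genes, Cd68, Csf1r, Cd163, Mrc1, Adgre1, Lyz2, C1qa, C1qb, C1qc and Aif1, out of 14217 genes that the platform annotation named on the array. All probe sets whose single gene symbol was one of these names were taken, which gave 11 probe sets, 1 for each of 9 genes and a pair for Aif1. A probe set is a group of short array probes that together report on a transcript. The 9 arrays came from the tongues of male Sprague-Dawley rats, with 3 arrays per group. Plain distilled water was the drink of the normal rats. In the 4NQO group the water held 0.002% 4-nitroquinoline oxide, a carcinogen that damages DNA and is used to induce precancerous and cancerous tongue lesions, and these rats per the study's methods received weekly saline injections under the tongue mucosa from week 14 to week 22. The 4NQO+IL-1Ra group drank 4NQO as well and had injections of recombinant rat interleukin-1 receptor antagonist in place of saline, so both groups share the carcinogen and the injections, and the normal group has neither. The labels place killing between weeks 14 and 22 as lesions became visible, whereas the study's methods place it at the end of week 22 for all rats of the intervention. No lesion stage was given for any single array. The labels did not say that each array was a separate animal, although the study's text speaks of 9 tongue tissues, so the p-values below measure the spread between these samples. Array numbers follow the order of deposition and carry no pairing.

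Tissue macrophages arise from embryonic precursors and from blood monocytes, and depend on signalling through the receptor for colony stimulating factor 1. They engulf dying cells and microbes, degrade them in lysosomes, and secrete lysozyme and the complement protein C1q. In the oral mucosa they lie mainly in the connective tissue under the epithelium and between muscle fibres. A piece of tongue holds muscle, epithelium, fibroblasts, vessels and leukocytes together, and in such bulk tissue fewer macrophages and less RNA per macrophage cannot be told apart.

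In signal level, 9 of the 10 genes were above the lower quartile of all probe sets on each of the 9 arrays. The exception was Adgre1, which was below it on 1 array, the second of the 4NQO group. Most probe sets of an array lie above that level, so this cannot show that the genes report macrophages. The 10 genes also moved together over the arrays. They were chosen by name, but with earlier results of these data known. The Pearson correlation of each gene with the mean of the other 9 members over 9 arrays ran from 0.82 for Cd163 to 0.99 for Csf1r, given as a description, since the arrays share labelling and scaling steps. Fbln5 and Mmp2, genes typical of connective tissue cells, reached 0.981 and 0.979 with the mean of all 10 members. They were picked from 9806 genes by that same correlation, so high values were built into the choice. They show only that some genes outside the macrophage list had a like pattern. The arrays were alike in overall level, with median intensities of 37.7 to 38.8 and correlations between arrays of 0.967 to 0.995 over 36 pairs. The log2 difference between the 3′ and 5′ probe sets of beta-actin, a sign of RNA integrity, was 0.74 to 0.86 on the normal arrays, 1.07 to 1.29 on the 4NQO arrays and 0.98 to 1.27 on the 4NQO+IL-1Ra arrays. It was 1.24 on 4NQO array 1, 1.07 on array 2 and 1.29 on array 3. For the control gene GAPDH the same difference was 0.23 to 0.30 on the normal arrays and 0.26 to 0.28 on the 4NQO+IL-1Ra arrays. On 4NQO arrays 1 to 3 it was 0.31, 0.31 and 0.43. The part of either difference in the results was not tested.

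C1qb, C1qc and C1qa lie next to each other in that order on chromosome 5 in the RefSeq annotation of GRCr8 and encode the 3 chains of a single protein. The 250 bases before the annotated start were read for C1qa and C1qb to show the DNA from which genes with so alike a pattern are transcribed. Those of Cd68 and Lyz2 are shown beside them, chosen after their values were seen, because these genes had the lowest p-values outside the C1q cluster in 4NQO+IL-1Ra against 4NQO. Capitals mark GAGGAA on either strand (TTCCTC where the match is on the opposite strand), the core bound by PU.1, an ETS factor needed for macrophage development. All 4 genes are on the minus strand, and the sequences run 5′ to 3′ along the transcript.
C1qa, chr5:154419934-154420183: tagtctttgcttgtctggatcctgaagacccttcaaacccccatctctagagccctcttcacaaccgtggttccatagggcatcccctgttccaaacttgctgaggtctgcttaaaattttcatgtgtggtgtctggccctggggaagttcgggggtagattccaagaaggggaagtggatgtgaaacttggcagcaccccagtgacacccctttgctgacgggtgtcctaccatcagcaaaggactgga
C1qb, chr5:154407828-154408077: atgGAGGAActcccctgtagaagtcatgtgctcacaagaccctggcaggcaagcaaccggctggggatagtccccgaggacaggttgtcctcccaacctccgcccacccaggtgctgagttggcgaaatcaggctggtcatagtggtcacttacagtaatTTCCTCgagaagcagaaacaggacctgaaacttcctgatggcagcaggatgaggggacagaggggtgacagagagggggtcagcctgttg
Cd68, chr10:54882442-54882691: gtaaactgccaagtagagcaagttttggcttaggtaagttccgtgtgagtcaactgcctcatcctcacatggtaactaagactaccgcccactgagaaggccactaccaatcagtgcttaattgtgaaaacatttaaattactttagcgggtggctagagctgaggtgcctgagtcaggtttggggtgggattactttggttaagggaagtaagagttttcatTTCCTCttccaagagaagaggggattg
Lyz2, chr7:54798012-54798261: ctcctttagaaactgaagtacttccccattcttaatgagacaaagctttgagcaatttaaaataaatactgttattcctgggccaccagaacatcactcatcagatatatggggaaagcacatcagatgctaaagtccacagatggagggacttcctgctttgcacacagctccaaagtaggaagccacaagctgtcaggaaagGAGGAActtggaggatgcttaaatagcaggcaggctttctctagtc
Promoter windows of 300 bases, 250 before and 50 after the start, were held for 8 of the 10 members. GAGGAA was found in 6 of these 8, namely Cd68, Csf1r, Mrc1, Adgre1, Lyz2 and C1qb, and in 27.6% of all 33469 windows of the same length. In C1qb it began 247 and 90 bases before the start, in Cd68 27 bases before and at base 5 after it, and in Lyz2 46 bases before. The E-box CANNTG was in 7 of the 8 members and in 72.1% of all windows. The AP-1 site TGANTCA was in Cd68 at 205 and 80 bases before the start and in 7.33% of all windows, and 1 of these overlapped an E-box. TTGCGC, a C/EBP core held by 6.68% of windows, and the TATA box TATAAA, held by 14.2%, were in 0 of the 8. These matches describe letters in a window and say nothing about whether a factor was bound.

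The array values, on the log2 scale, are taken in the order of what the proteins do, starting with the secreted ones. C1q is the recognition molecule of the classical complement pathway and binds antibody complexes and dying cells, and tissue macrophages are a main source of it. C1qa was 8.79, 9.26 and 8.48 on normal arrays 1 to 3, 9.47, 7.51 and 8.05 on the 4NQO arrays, and 8.82, 8.78 and 9.53 on the 4NQO+IL-1Ra arrays. C1qb was 7.89, 8.40 and 7.50 on the normal arrays, 8.14, 6.15 and 6.97 on the 4NQO arrays, and 8.17, 7.70 and 8.59 on the 4NQO+IL-1Ra arrays. C1qc was 8.16, 8.55 and 7.76 on the normal arrays, 8.75, 7.02 and 7.42 on the 4NQO arrays, and 8.50, 8.22 and 9.08 on the 4NQO+IL-1Ra arrays. All 3 chains gave the same picture, with 4NQO arrays 2 and 3 below the other 7 arrays and 4NQO array 1 within or above the normal range, so the groups overlapped. Lyz2 encodes lysozyme, which cleaves bacterial cell walls and is secreted by macrophages and neutrophils. It was 10.85, 11.36 and 10.54 on the normal arrays, 11.04, 9.47 and 10.34 on the 4NQO arrays, and 10.92, 11.07 and 11.63 on the 4NQO+IL-1Ra arrays. Here too 4NQO arrays 2 and 3 were the lowest of the 9, and array 1 lay within the normal range.

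The surface receptors followed. Csf1r is the receptor through which macrophages receive their survival signal. It was 7.35, 7.73 and 7.04 on the normal arrays, 7.74, 6.44 and 6.76 on the 4NQO arrays, and 7.63, 7.33 and 7.78 on the 4NQO+IL-1Ra arrays. The first 4NQO array thus lay just above the highest normal array, while the other 2 were below all normal arrays. Cd163, a scavenger receptor that takes up haemoglobin bound to haptoglobin, was 6.72, 7.10 and 6.46 on the normal arrays, 7.56, 6.04 and 5.80 on the 4NQO arrays, and 7.37, 6.32 and 7.18 on the 4NQO+IL-1Ra arrays. Its highest value of all 9 arrays was on 4NQO array 1 and its lowest on 4NQO array 3. Mrc1, the mannose receptor CD206 of tissue-resident macrophages, was 7.52, 8.05 and 7.11 on the normal arrays, 7.89, 6.47 and 6.63 on the 4NQO arrays, and 7.99, 7.33 and 7.87 on the 4NQO+IL-1Ra arrays. Adgre1, the adhesion receptor known in the mouse as F4/80, was 4.36, 4.76 and 4.38 on the normal arrays, 5.38, 3.48 and 4.06 on the 4NQO arrays, and 4.91, 5.10 and 5.44 on the 4NQO+IL-1Ra arrays. Adgre1 was the single member with all 3 4NQO+IL-1Ra arrays above all 3 normal arrays, and its 4NQO arrays ran from below to above the normal ones.

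Cd68 and Aif1 are proteins inside the cell. Cd68, a glycoprotein of the lysosomal and endosomal membrane, was 6.31, 6.41 and 6.32 on the normal arrays, 6.14, 5.13 and 5.57 on the 4NQO arrays, and 6.14, 6.51 and 6.85 on the 4NQO+IL-1Ra arrays. By the brightest probe set of each gene, it was the single member with all 4NQO arrays below all normal arrays. The lowest 4NQO+IL-1Ra value of Cd68 matched its highest 4NQO value to 2 decimals. Aif1 encodes IBA1, a calcium-binding protein of the actin cytoskeleton, and was read by a pair of probe sets. The brighter one was 5.64, 5.99 and 5.28 on the normal arrays, 6.12, 4.01 and 5.60 on the 4NQO arrays, and 5.65, 5.57 and 6.33 on the 4NQO+IL-1Ra arrays. The other was 5.26, 5.42 and 5.62 on the normal arrays, 5.11, 5.07 and 5.06 on the 4NQO arrays, and 5.24, 4.83 and 4.94 on the 4NQO+IL-1Ra arrays. The probe sets of Aif1 therefore disagreed, since the wide spread of the first over the 4NQO arrays was absent from the second.

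**Figure D1:**
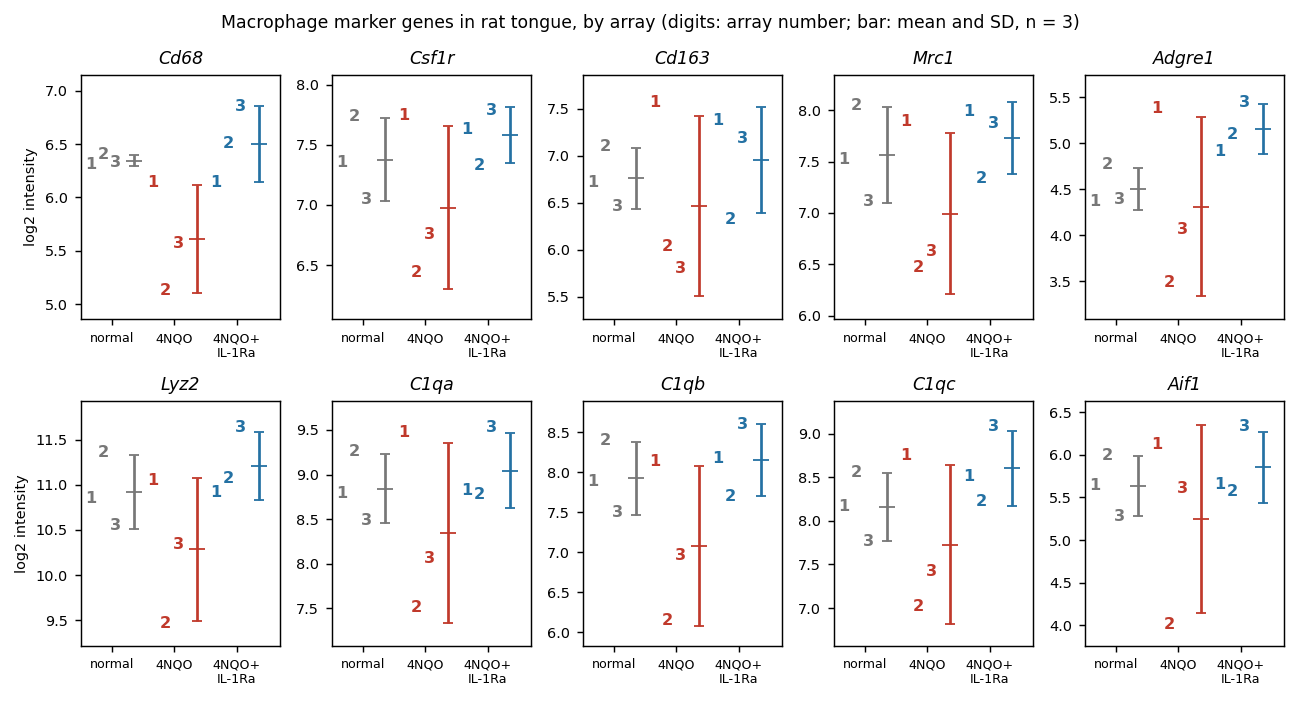
Log2 intensity of each of the 10 macrophage marker genes on each array, with 1 panel per gene, digits for the array number within a group, and bars for mean and SD (n = 3). In all 10 panels the 4NQO array numbered 1 is the highest of its group, and the group mean of the 4NQO arrays is the lowest of the 3 means.

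The group means fell in the same order for all 10 members, lowest in 4NQO, then normal, then 4NQO+IL-1Ra, but no neighbouring pair in that order differed past the threshold for any member. The second probe set of Aif1 had another order, at 5.01 in 4NQO+IL-1Ra, 5.08 in 4NQO and 5.44 in normal. The moderated F test of limma for any difference among the 3 groups called 0 of the 10 members at an adjusted p of 0.05, against 12.0% of the 31042 probe sets tested. The lowest F test adjusted p was 0.0642, for Cd68, in limma.

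The first comparison asked whether macrophage transcripts changed during carcinogenesis, by setting 4NQO against normal. All 10 estimates were below 0, with a median of -0.47 on the log2 scale beside 0.01 for all probe sets. With limma, 0 of the 10 members passed, against a background of 14.9% of probe sets. At an unadjusted limma p under 0.05 the count was 1 of 10, Cd68, against 32.9% of probe sets. Cd68 was 1.66-fold lower in 4NQO, a log2 difference of -0.73 (SE 0.24, 95% interval -1.27 to -0.19), with a limma adjusted p of 0.0688. C1qb had the largest estimate at -0.85 (SE 0.44, 95% interval -1.83 to 0.14) and a limma adjusted p of 0.21. The estimates of the other 8 ran from -0.63 for Lyz2 to -0.20 for Adgre1, and the 95% intervals of all members other than Cd68 included 0. Groups that did not overlap were seen for 1 of 10 members in the lower direction, Cd68, against 17.6% of all probe sets. For the 9 genes other than Cd68, each read by its brightest probe set, the intervals held both no difference and a difference below -1 log2 unit. The second probe set of Aif1 was at -0.35 (95% interval -0.65 to -0.05), with limma p-values of 0.0252 unadjusted and 0.101 adjusted. Its 4NQO arrays all lay below its normal arrays.

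The second comparison, 4NQO+IL-1Ra against 4NQO, asked whether blocking the interleukin-1 receptor changed the carcinogen-treated tongue. All 10 estimates were above 0, with a median of 0.79 beside -0.02 for all probe sets. With limma 0 of the 10 members passed, against 2.33% of probe sets. At an unadjusted limma p under 0.05 the count was 3 of 10, Cd68, Lyz2 and C1qb, against 19.0% of probe sets. C1qb was 2.10-fold higher in 4NQO+IL-1Ra, a log2 difference of 1.07 (SE 0.44, 95% interval 0.09 to 2.06), with a limma adjusted p of 0.225. Lyz2 differed by 0.92 (SE 0.36, 95% interval 0.11 to 1.73) with a limma adjusted p of 0.207. Cd68 differed by 0.88 (SE 0.24, 95% interval 0.34 to 1.42) with a limma adjusted p of 0.0903. The remaining 7 estimates ran from 0.49 for Cd163 to 0.87 for C1qc. Groups that did not overlap were seen for 1 of 10 members in the higher direction, Cd68, against 8.92% of probe sets. The second probe set of Aif1 was at -0.08 where the brighter one was at 0.61. This comparison and the first share the 3 4NQO arrays, so low values on those arrays push the estimates below 0 in the one and above 0 in the other.

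The third comparison set the 4NQO+IL-1Ra arrays against normal tongue. The 10 estimates ran from 0.15 for Cd68 to 0.65 for Adgre1, with a median of 0.21 beside -0.01 for all probe sets. With limma 0 of the 10 passed, against 1.87% of probe sets, and at an unadjusted limma p under 0.05 the count was 0 of 10 against 22.7%. Adgre1 was 1.56-fold higher, a log2 difference of 0.65 (SE 0.39, 95% interval -0.22 to 1.51), with a limma adjusted p of 0.348. Adgre1 was the 1 member of 10 whose groups did not overlap in the higher direction, against 19.4% of all probe sets. By the methods' t-test with an unadjusted p under 0.05 and a fold of at least 1.5, Adgre1 was again the 1 member called, against 4.48% of probe sets. The second Aif1 probe set was at -0.43 (95% interval -0.73 to -0.13), with limma p-values of 0.00948 unadjusted and 0.105 adjusted. Its groups did not overlap, in the lower direction. An exact permutation test of 3 arrays against 3 cannot give a two-sided p below 0.1.

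**Figure D2:**
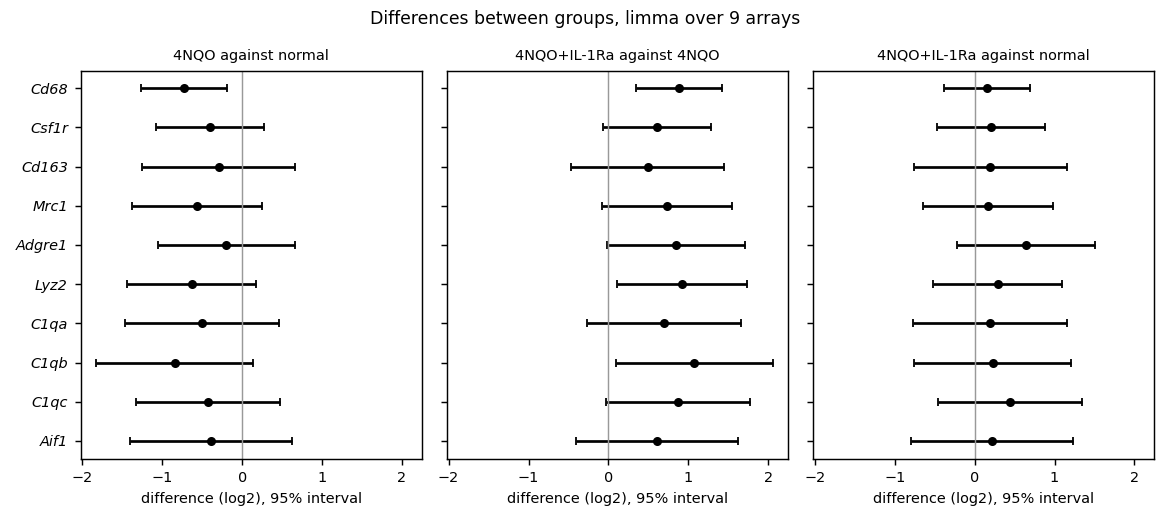
Log2 difference between groups for each macrophage marker gene (points) with its 95% interval from limma (bars), with 1 panel per comparison. Estimates lie below 0 for 4NQO against normal, above 0 for 4NQO+IL-1Ra against 4NQO and between 0.15 and 0.65 for 4NQO+IL-1Ra against normal, and in the first panel the interval of Cd68 alone does not include 0.

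The 4NQO arrays differed widely among themselves. The median SD of the 10 members over 3 arrays was 0.93 log2 units in 4NQO, 0.37 in normal and 0.40 in 4NQO+IL-1Ra. Over all probe sets the medians were 0.19, 0.11 and 0.15. Of the probe sets brighter than the median, 1.56% had an SD in the 4NQO group at or above the 0.93 of the members. 4NQO array 1 was the highest of its group for all 10 members, and array 2 was the lowest of all 9 arrays for 9 of them. The gap between these arrays ran from 1.01 for Cd68, a 2.01-fold difference, to 2.11 for Aif1, a 4.31-fold difference, and for C1qa and C1qb was 1.96 and 1.99. 4NQO array 2 was below every normal array and every 4NQO+IL-1Ra array for 10 of 10 members, and array 3 for 9 of 10, with Aif1 the exception. 4NQO array 1, by contrast, was above every normal array for 6 of 10, namely Csf1r, Cd163, Adgre1, C1qa, C1qc and Aif1. The members also moved together in the other groups. Normal array 2 was the highest normal array for 10 of 10 members, and 4NQO+IL-1Ra array 3 was the highest of all 9 arrays for 8 of 10. The share of all probe sets with such array patterns is not given here. These counts on single arrays therefore cannot be read as particular to the members. Averaged over the members, the deviation from each gene's own mean was 0.03, 0.43 and -0.24 on the normal arrays, 0.49, -1.16 and -0.61 on the 4NQO arrays, and 0.28, 0.06 and 0.70 on the 4NQO+IL-1Ra arrays. The summed intensity of the 10 genes ran from 2747 to 4736 in normal, from 1394 to 4353 in 4NQO and from 3668 to 5673 in 4NQO+IL-1Ra.

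**Figure D3:**
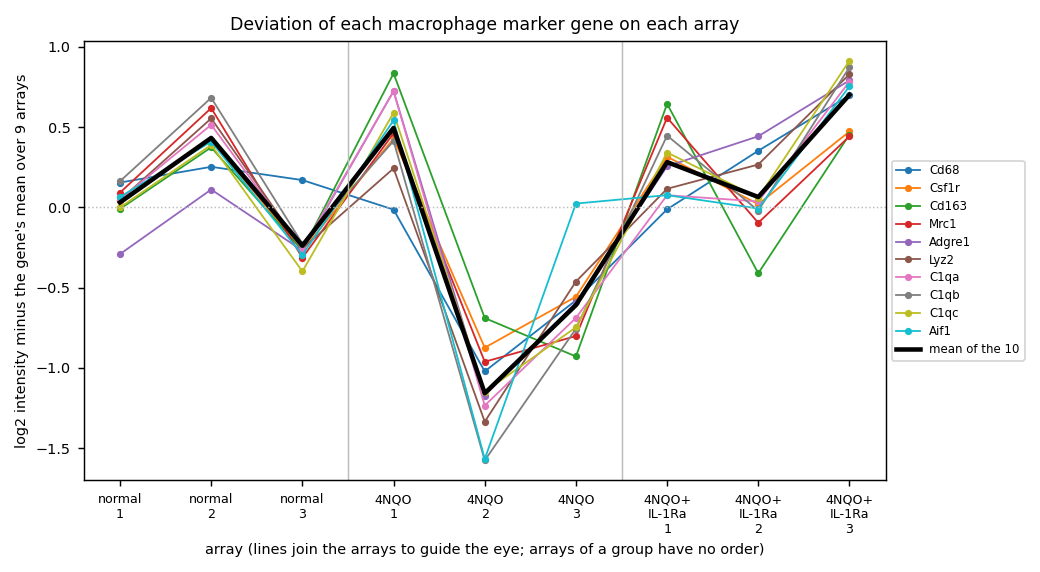
Deviation of each macrophage marker gene from its own mean over 9 arrays, in log2 units, on each array, with 1 thin line per gene and a thick black line for the mean of the 10. The lines run close together, with 4NQO array 2 lowest at a mean of -1.16 and 4NQO+IL-1Ra array 3 highest at 0.70.

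The comparisons were repeated without each array in turn. Without 4NQO array 1, limma called 5 of the 10 members lower in 4NQO than in normal, against 12.0% of probe sets, namely Cd68 at -0.99, Csf1r at -0.78, Mrc1 at -1.01, C1qa at -1.06 and C1qb at -1.37. The same removal gave 3 of 10 called higher in 4NQO+IL-1Ra than in 4NQO, against 2.0% of probe sets, namely Cd68 at 1.15, Adgre1 at 1.38 and C1qc at 1.39. The F test then called 6 of the 10, against 9.23% of probe sets. Without any other single array the count was 0 in each comparison. Leaving out 4NQO array 2 instead brought the median 4NQO against normal estimate from -0.47 to -0.11, with Adgre1 and Aif1 above 0 at 0.22 each. The median 4NQO+IL-1Ra against 4NQO estimate was 0.45 without 4NQO array 2, with 9 of 10 above 0, and 1.22 without array 1. Nothing in the labels marks array 1 as faulty, and the calls made without it rest on a choice made after its values were known. With quantile normalization of the arrays repeated, Cd68 passed limma in 4NQO against normal at -0.86 with an adjusted p of 0.042, the 1 member of 10 called there, against 9.09% of probe sets.

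**Figure D4:**
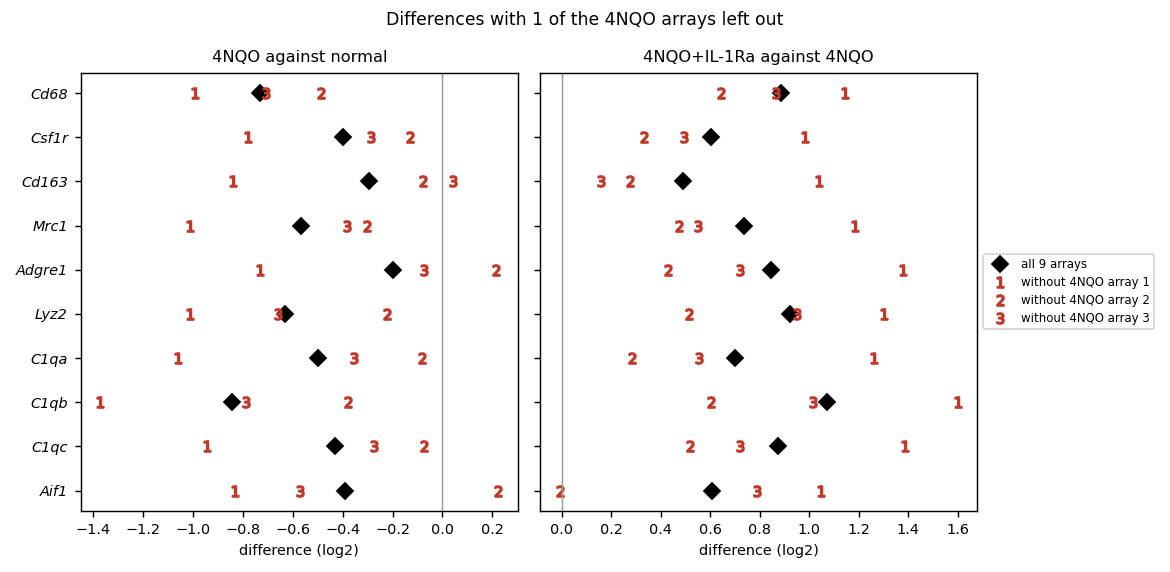
Log2 difference of each macrophage marker gene with all 9 arrays (black diamonds) and with 1 of the 4NQO arrays left out (red digits name that array), for 2 comparisons. Leaving out array 1 moves all 10 genes away from 0 in both panels, and leaving out array 2 moves them toward 0 or past it.

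The genes with the most alike pattern were found by the correlation over 9 arrays with the mean profile of the members, among 9806 other genes brighter than the median probe set, as a description. The 8 closest were Ms4a6bl1 (0.996), Folr2 (0.986), Fbln5 (0.981), Mmp2 (0.979), C1s (0.977), Ctss (0.966), Cd300c2 (0.960) and Slamf9 (0.957). Folr2 is the folate receptor beta of tissue-resident macrophages and Ctss is cathepsin S, a protease of antigen-presenting cells. Fbln5 and Mmp2, in contrast, encode fibulin 5 of elastic fibres and a gelatinase, both typical of connective tissue cells, and C1s is a protease of the complement C1 complex. None of the 8 passed limma in any comparison, and the largest of their 4NQO+IL-1Ra against 4NQO differences was that of Ctss, 0.95, with a limma adjusted p of 0.129.

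The list named CSF1 axis holds the Csf1r ligands Csf1 and Il34, Csf2 with its receptor genes, and transcription factors. Of the 13 genes listed, 11 were measured. Over all probe sets limma called 14.9% in 4NQO against normal, 2.33% in 4NQO+IL-1Ra against 4NQO and 1.87% in 4NQO+IL-1Ra against normal. These shares are the background for this and the later lists. At an unadjusted limma p under 0.05 the shares were 32.9%, 19.0% and 22.7% in the same order. Without 4NQO array 1, limma called 12.0% in 4NQO against normal and 2.0% in 4NQO+IL-1Ra against 4NQO. The shares without array 2 or without array 3 are not given here. In 4NQO against normal, 1 of the 11 rose and 1 fell past the limma threshold. Runx1, a transcription factor of blood cell development, rose by 0.81 (limma adjusted p 0.0185), and Csf1, the ligand of Csf1r, fell by 0.54 (limma adjusted p 0.047). The call on Csf1 was lost without any 1 of the 4NQO arrays. Other probe sets were at -0.38, 0.03 and -0.13 for Csf1 and at 0.39 for Runx1. Il34, the second ligand of Csf1r, was at -0.17 with a limma adjusted p of 0.496. Chemokines and receptors of monocyte entry were measured for 11 of 15 listed, and 0 passed limma in any comparison, with 2, 1 and 2 at an unadjusted p under 0.05 in the 3 comparisons. In 4NQO against normal 2 fell without 4NQO array 1, and 1 rose and 1 fell without array 2. Ccl2, the main monocyte chemokine, was at 0.58 in 4NQO against normal (limma adjusted p 0.598), and its receptor Ccr2 at -0.32 (limma adjusted p 0.217).

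C1q works with the proteases C1r and C1s and with other complement proteins and receptors, of which 13 of 19 listed were measured. Cfp, properdin of the alternative pathway, fell by 0.76 in 4NQO (limma adjusted p 0.013), and Calr, calreticulin, to which C1q binds on dying cells, rose by 0.59 in 4NQO+IL-1Ra against normal (limma adjusted p 0.044), the latter call being lost without 4NQO array 1. The other 11 did not pass in any comparison. Both C1q proteases were near the C1q chains in direction, with C1r at 0.58 and C1s at 0.59 in 4NQO+IL-1Ra against 4NQO (limma adjusted p 0.283 and 0.328). Receptors and oxidase subunits of phagocytes were measured for 20 of 23 listed. In 4NQO against normal 1 rose, Sirpa at 0.63 (limma adjusted p 0.0275), the receptor of the CD47 signal that restrains engulfment, and 1 fell, Ncf1 at -0.56 (limma adjusted p 0.0245), a subunit of the phagocyte oxidase. The call on Sirpa was lost without 4NQO array 1, and its other probe sets were at -0.13 and -0.24. In 4NQO+IL-1Ra against 4NQO 0 of the 20 passed limma, with 1 at an unadjusted p under 0.05, and 18 of 20 estimates were above 0 with a median of 0.32. That median was 0.093 without 4NQO array 2, with 14 of 20 above 0, and 0.56 without array 1.

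Scavenger and efferocytosis genes, measured for 21 of 24 listed, split in direction. In 4NQO against normal 3 rose and 3 fell, or 2 and 1 without 4NQO array 3. Gpnmb, a glycoprotein of lipid-laden macrophages, rose by 1.58 (limma adjusted p 0.00475) and Scarb1, a lipoprotein receptor, by 1.23 (limma adjusted p 0.0156). Hmox1, the haem oxygenase that degrades haem brought in through Cd163, fell by 1.66 (limma adjusted p 0.00323). In 4NQO+IL-1Ra against 4NQO, Hmox1 rose by 1.86 (limma adjusted p 0.00167) and Cd36, a fatty acid and lipoprotein receptor, fell by 0.97 (limma adjusted p 0.04), while the other 19 did not pass. Hmox1, Scarb1 and Cd36 are also expressed by epithelium, muscle or vessels. Cd163 itself was at -0.29 and 0.49 in the same comparisons and did not pass. Lysosome genes, measured for 15 of 17 listed, gave 3 higher and 2 lower in 4NQO. Ctsd, cathepsin D, fell by 0.47 in 4NQO (limma adjusted p 0.0286) and rose by 0.59 in 4NQO+IL-1Ra against 4NQO (limma adjusted p 0.0347). The 3 lysosome genes that rose in 4NQO were no longer called without 4NQO array 1, and the 2 that fell were no longer called without array 3. The call on Ctsd in 4NQO+IL-1Ra against 4NQO was lost without 4NQO array 2.

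Genes linked to inflammatory activation were measured for 15 of 16 listed, of which 2 fell in 4NQO against normal. These were Nos2, the inducible nitric oxide synthase, at -0.47 (limma adjusted p 0.0342) and Tnf at -0.61 (limma adjusted p 0.0493). The other probe set of Tnf was at 0.04. Of 15 of 17 genes linked to alternative activation, 2 rose, Stat6, the transcription factor of interleukin-4 signalling, at 0.77 (limma adjusted p 0.0264) and the nuclear receptor Pparg at 0.97 (limma adjusted p 0.0265). In 4NQO against normal, 0 genes of the inflammatory list were called without 4NQO array 1 or without array 3, and 2 rose and 1 fell without array 2. For the alternative list, in the same comparison, 1 rose without array 1, 0 were called without array 2, and 0 rose and 1 fell without array 3. With all arrays neither list had a gene past the threshold in the other comparisons. Without 4NQO array 3, 2 inflammatory genes and 1 alternative gene were called higher in 4NQO+IL-1Ra against 4NQO. Without array 2, each list had 1 gene called higher in 4NQO+IL-1Ra against normal. Pparg and Stat6 are expressed by many tongue cells. MHC class II genes, which macrophages, dendritic cells and induced epithelium use to present antigen, were all above 0 in 4NQO+IL-1Ra against 4NQO, with a median of 0.73 over 8 genes. With limma 0 of these 8 passed there, with 5 at an unadjusted p under 0.05, against 19.0% of probe sets. Without 4NQO array 3, 4 were called higher. Without 4NQO array 2 the median was 0.43, with 6 of 8 above 0. Ciita, their master regulator, rose by 0.89 in 4NQO+IL-1Ra against normal (limma adjusted p 0.0407), a call lost without 4NQO array 1. Its other probe set was at -0.33 there, and at -0.57 in 4NQO against normal (limma adjusted p 0.0307), where the brightest one was at 0.21. The mean deviation of the MHC class II genes was -0.18, -0.89 and 0.38 on the 4NQO arrays, where that of the macrophage genes was 0.49, -1.16 and -0.61. Both lists were lowest of the 9 arrays on 4NQO array 2 and highest on 4NQO+IL-1Ra array 3, and they lay on opposite sides of 0 on 4NQO arrays 1 and 3 and on normal array 1.

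Markers of other cells were read beside the members, as all share the same piece of tissue. Of 15 fibroblast genes, 10 fell in 4NQO against normal, with a median of -1.08, among them Fap at -0.82 (limma adjusted p 0.0111), Sparc at -0.99 (0.0129) and Lum at -1.13 (0.0185). The count was 8 without 4NQO array 2 and 8 without array 3. In 4NQO+IL-1Ra against 4NQO 0 of the 15 passed limma, with a median of 0.57. At an unadjusted limma p under 0.05 the count was 7, against 19.0% of probe sets. Without 4NQO array 1, 5 were called higher, against 2.0% of probe sets. Without 4NQO array 2 the median was 0.35, with 12 of 15 above 0 and 0 called. Their mean deviation was 0.16, -1.21 and -0.53 on the 4NQO arrays, close to the 0.49, -1.16 and -0.61 of the macrophage genes. On the normal arrays it was 0.40, 0.64 and 0.38, against 0.03, 0.43 and -0.24 for the macrophage genes, and the median difference for 4NQO against normal was -1.08 for the fibroblast and -0.47 for the macrophage genes. Genes of all leukocytes, 13 of 13 measured, had mean deviations of 0.39, -0.48 and -0.08 on the 4NQO arrays. In 4NQO against normal 1 of them fell, Cd48 at -0.94 (limma adjusted p 0.0234), a call lost without 4NQO array 2 or array 3. Without either of those arrays 1 leukocyte gene was called higher instead. With all arrays 8 of the 13 estimates were above 0, with a median of 0.18. In 4NQO+IL-1Ra against 4NQO 10 of the 13 were above 0, with a median of 0.24, beside 45.8% of all probe sets, and 0 passed limma. Keratinocyte genes were at -0.28, -0.98 and 0.48 on the 4NQO arrays and skeletal muscle genes at 0.31, 0.29 and 0.08, so 4NQO array 2, where macrophage genes were lowest, was also the lowest array for fibroblast, keratinocyte and leukocyte genes and not for muscle. The summed intensity of the 15 fibroblast genes ran from 7315 to 19402 in 4NQO and from 25482 to 30000 in normal. Whether the makeup of the tissue piece accounts for the spread of the macrophage genes was not tested.

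**Figure D5:**
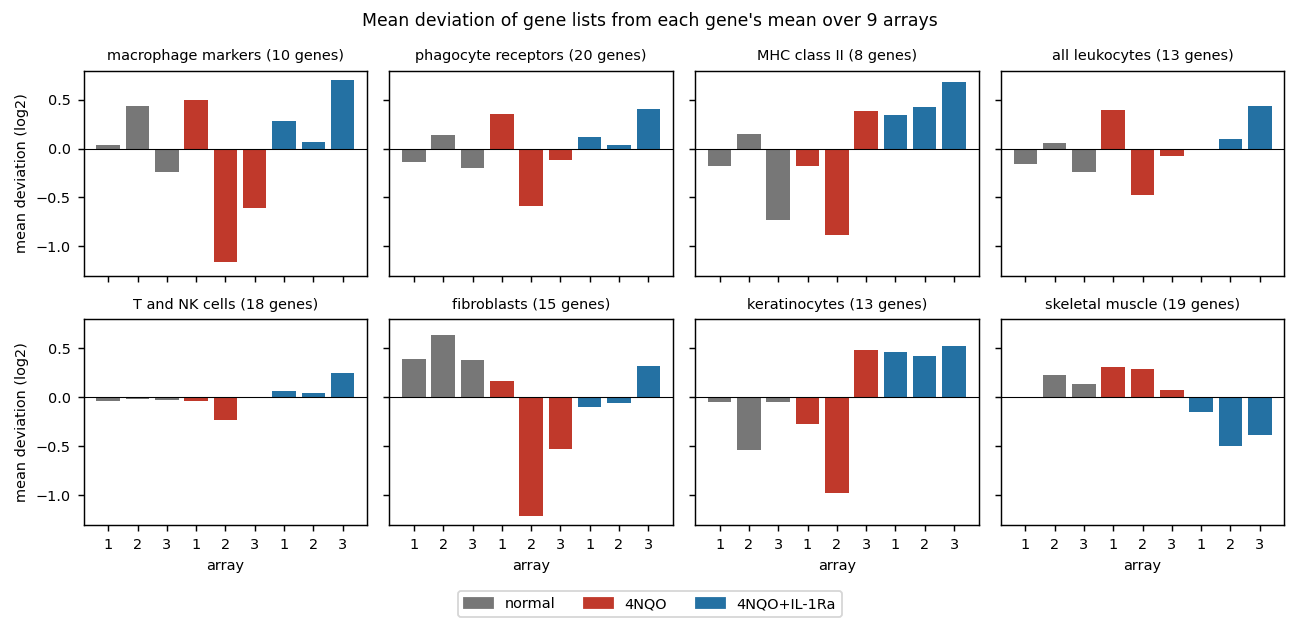
Mean deviation, in log2 units, of 8 gene lists from each gene's mean over 9 arrays, with 1 bar per array coloured by group. The macrophage and fibroblast panels both have their lowest bar on 4NQO array 2, at -1.16 and -1.21, while the muscle bar there is at 0.29.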

How the data were processed

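Total RNA of rat tongue was hybridised to Affymetrix rat genome arrays, 1 per sample. The values deposited by the authors are linear intensity values per probe set, made, by the submitters' processing notes, with RMA in Affymetrix Expression Console (versions not given in the sources used here). RMA equalises the arrays, which can hide a change common to most genes. Arrays were grouped by the treatment in the labels. Log2 was taken, 57 control probe sets were left out of 31099, and 31042 probe sets entered a single limma fit (version 3.58.1, R 4.3.3) of the 9 arrays (3 group means, eBayes, two-sided, Benjamini-Hochberg over all probe sets, threshold 0.05). No dim probe set was removed, and the number of arrays limits the precision. A gene was read through its brightest probe set. Names came from the platform annotation, which can be old. It gave 20826 of these probe sets a single symbol, 436 several and 9780 none. All 10 member identifiers matched RefSeq.

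The members and gene lists were chosen with earlier results of these data known. All members are named, and of each other list up to 4 genes with the lowest adjusted p in the comparison described, with any called gene of the CSF1 axis, complement and monocyte entry lists. Il34, Ccl2, Ccr2, C1r, C1s, Ptgs2, S100a8 and S100a9 were named after their values were seen. Lists are described by counts and medians without a test. The 8 most alike genes are those with the highest Pearson correlation with the mean member profile. Alternatives were cyclic loess, quantile or median scaling, a filter leaving out the dimmest 40%, 1 probe set per gene, other probe sets, trended or robust eBayes, array weights, pairwise fits, the methods' t-test, and each array left out. The fit was tested on simulated data. Promoters came from RefSeq, GRCr8, a build the files do not name, and were searched with Python 3.11.15 and pandas 2.3.3. Figures were drawn with matplotlib 3.10.9.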

Additional observations from a re-analysis of the deposited data

How the results depend on the processing

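Each of the 30 member differences was recomputed under the alternatives, giving 633 values, of which 609 kept their sign and their side of the threshold, 10 passed it anew, 0 lost a call and 14 changed sign. With each array left out in turn, the number of members called ran from 0 to 5 in 4NQO against normal, from 0 to 3 in 4NQO+IL-1Ra against 4NQO and from 0 to 6 by the F test, the highest counts all without 4NQO array 1. Quantile normalization repeated gave 1 member in 4NQO against normal (Cd68), and the methods' t-test with a fold of 1.5 gave 1 in 4NQO+IL-1Ra against normal (Adgre1), while every other alternative gave 0.

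Array weights moved 4NQO against normal to 0.12 for Cd163 and 0.18 for Adgre1, and Cd163 in 4NQO+IL-1Ra against 4NQO to -0.0010. The second Aif1 probe set gave -0.077 in 4NQO+IL-1Ra against 4NQO and -0.43 in 4NQO+IL-1Ra against normal. With 1 array left out, 9 differences had ranges on both sides of 0. For 4NQO against normal these ran from -0.84 (without 4NQO array 1) to 0.041 (without array 3) for Cd163, and, without 4NQO arrays 1 and 2 in turn, from -0.73 to 0.22 for Adgre1 and from -0.83 to 0.22 for Aif1. For 4NQO+IL-1Ra against 4NQO, Aif1 ran from -0.0085 (without 4NQO array 2) to 1.05 (without array 1). For 4NQO+IL-1Ra against normal, the range was -0.022 to 0.33 for Cd68, -0.045 to 0.40 for C1qa and -0.025 to 0.39 for Aif1, each lowest without 4NQO+IL-1Ra array 3, -0.011 to 0.52 for Cd163, lowest without 4NQO+IL-1Ra array 1, and -0.054 to 0.41 for Mrc1, lowest without normal array 3. Beyond the arrays left out, the cause was not tested. Counts for the other gene lists were repeated without each 4NQO array, a choice made after seeing the data, and not under the other alternatives. No paired analysis was possible because the labels give no shared replicate numbers.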

Other observations

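Of 7 measured genes of B and plasma cells, 3 fell in 4NQO against normal, Cd79b at -0.50 (limma adjusted p 0.0115), Mzb1 at -0.68 (0.0356) and Ms4a1 at -0.43 (0.0424), and 1 was called without any 1 of the 4NQO arrays. The signal was low, with 3 of the 7 below the lower quartile on all 4NQO arrays. Cd79b was 3.42, 3.37 and 3.33 there, against lower quartiles of 3.63, 3.66 and 3.61, while Mzb1 was 4.87, 4.63 and 4.85. Of 18 T and NK cell genes 1 fell, Cd4 at -0.47 (limma adjusted p 0.0266), a gene that rat macrophages express too. Of 10 mast cell genes 1 fell, Cpa3, the mast cell carboxypeptidase, at -1.33 (limma adjusted p 0.0366), and of 8 dendritic and Langerhans cell genes 1 fell, Batf3 at -0.40 (limma adjusted p 0.023). Without 4NQO array 2 the counts for the T and NK cell and the mast cell genes were 0. Over all probe sets 14.9% were called in 4NQO against normal with all arrays. Cxcr2, a chemokine receptor of neutrophils, was the 1 of 8 neutrophil genes that passed, 1.39 higher in 4NQO+IL-1Ra against 4NQO (limma adjusted p 0.0351). The list split in direction there, with 4 of 8 estimates above 0 and a median of 0.014. S100a9 was at -1.10 and S100a8 at -0.26. Cxcr2 was 3.31 on 4NQO array 2, below the lower quartile of that array, 3.66.

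Of 11 endothelial genes 4 rose in 4NQO against normal, Flt1 at 0.83 (limma adjusted p 0.0138), Kdr at 0.76 (0.0173), Pecam1 at 0.81 (0.0175) and Vwf at 1.06 (0.0231), and 0 of 7 lymphatic endothelial genes passed limma in any comparison, with 0 at an unadjusted p under 0.05. In 4NQO against normal the other probe set of Kdr was at -0.09, and those of Flt1 were at 0.62 and 0.84. Of 13 keratinocyte genes 2 rose and 2 fell in 4NQO against normal, with Ivl, involucrin of the cornified envelope, at -2.35 (limma adjusted p 0.0105) and Itgb4, an integrin of basal cells, at 1.25 (limma adjusted p 0.00475). Of 19 muscle genes 0 passed in 4NQO against normal, with 3 at an unadjusted limma p under 0.05, and 4 fell in 4NQO+IL-1Ra against 4NQO, with Tnnc1 at -1.47 (limma adjusted p 0.0373), and 2 without 4NQO array 1 or without array 2.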
